A study of Mus musculus with 37 samples.

Results

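Imprinted genes are transcribed mainly from the chromosome inherited from 1 parent. The 36 examined here were taken as a fixed list of mouse genes known to carry parent-of-origin expression, and each was found by its symbol in all 4 deposited tables, which hold 24411 genes apiece. They lie in 11 groups of neighbours: the Peg3, Snrpn-Ube3a, Dlk1-Dio3, Grb10-Ddc, Mest-Copg2, Peg10-Sgce, Igf2-H19, Kcnq1ot1, Igf2r-Airn and Gnas domains, and a set of single genes and small domains (Zrsr1, Nap1l5, Nnat, Inpp5f, Impact, Plagl1). A gene was described in a table when its mean normalized count there was 10 or more, which held for 28 of the 36 in the nuclei, 31 in the first knockdown, 29 in the second knockdown and 34 in the overexpression.

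The series compares mouse neurons in which Tet2, an enzyme that oxidises 5-methylcytosine, was deleted, targeted by a hairpin or overexpressed with matched controls. Neuronal nuclei from the hippocampus of C57/Bl6 mice made up 4 WT samples (Tet2fl/fl in the series' design, so the floxed allele is shared) and 3 of genotype CamKIIaCreERt2;Tet2 cKO, in which a tamoxifen-responsive Cre is driven by a promoter of forebrain excitatory neurons, so that Tet2 stays intact in other cells. Primary neurons of C57/Bl6 embryos at day 17 were infected with lentivirus carrying a hairpin against luciferase (shLuciferase, 6 libraries) or Tet2 (shTet2, 6 libraries), called the first knockdown. A second set of primary neuron cultures received shLuc or Tet2 KD (6 libraries each, the second knockdown), and another received synGFP or Tet2 OE (3 libraries each, the overexpression). Strain and age are not given for these. Column names of both overexpression groups carry the prefix syn (synGFP, synTet2OE), which may name the promoter but is not spelled out. The form of the Tet2 construct is not given. Animal age, Cre induction and virus dose are not given in the sources used here. The time to harvest is not given either, except that column names of the second knockdown carry the mark 3d, which is not explained. The labels do not say that libraries of a group came from separate animals or cultures, so p-values measure the spread between these libraries, which may be technical.

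Imprints are laid down as DNA methylation in the egg or sperm at imprinting control regions, kept through cell division by a complex of the zinc finger protein ZFP57 with TRIM28 that binds the methylated hexamer TGCCGC, and erased in germ cells, where TET enzymes take part. Many of these genes are strongly transcribed in brain, where they act on growth, feeding, maternal care and neuronal differentiation. Some switch parent between tissues: Ube3a is expressed from both chromosomes in most cells and from the maternal one in neurons, Grb10 from the maternal one in most tissues and the paternal one in neurons, and within Inpp5f and Gnas some transcripts are imprinted and others are not. The tables give 1 total per gene with no allele and no transcript, so nothing below measures imprinting itself, and loss of 1 active copy cannot be told apart from lower transcription of it.

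The promoters of 5 members on which the results turn are shown first, for their CpG content and, in Peg3, for a start region held in common with Usp29. Each run is the 250 bases before the RefSeq start (GRCm38.p6, the same assembly as mm10), 5′ to 3′ on the gene's strand, with every CG dinucleotide in capitals. Inpp5f rose in all 3 culture experiments, Plagl1 had the smallest p of the members that fell, Mkrn3 and Peg12 are neighbours that moved in opposite directions in the second knockdown, and Peg3 rose in the second knockdown and the overexpression.
Inpp5f (chr7:128611115-128611364, plus strand): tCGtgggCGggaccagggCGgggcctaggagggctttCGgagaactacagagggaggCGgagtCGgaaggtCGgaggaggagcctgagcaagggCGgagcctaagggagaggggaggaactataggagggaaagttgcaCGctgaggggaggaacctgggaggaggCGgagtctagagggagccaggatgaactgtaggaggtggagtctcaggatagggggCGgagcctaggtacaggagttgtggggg
Plagl1 (chr10:13090582-13090831, plus strand): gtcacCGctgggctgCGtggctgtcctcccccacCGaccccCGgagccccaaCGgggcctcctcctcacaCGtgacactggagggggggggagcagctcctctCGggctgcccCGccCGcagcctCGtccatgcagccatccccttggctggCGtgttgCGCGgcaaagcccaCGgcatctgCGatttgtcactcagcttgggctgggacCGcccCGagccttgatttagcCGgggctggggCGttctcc
Mkrn3 (chr7:62420154-62420403, minus strand): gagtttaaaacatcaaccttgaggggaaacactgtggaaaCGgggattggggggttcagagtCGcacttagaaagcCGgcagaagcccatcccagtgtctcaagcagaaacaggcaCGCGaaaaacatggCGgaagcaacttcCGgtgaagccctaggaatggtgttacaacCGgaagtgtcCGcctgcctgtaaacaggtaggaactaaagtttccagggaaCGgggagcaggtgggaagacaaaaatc
Peg12 (chr7:62464511-62464760, minus strand): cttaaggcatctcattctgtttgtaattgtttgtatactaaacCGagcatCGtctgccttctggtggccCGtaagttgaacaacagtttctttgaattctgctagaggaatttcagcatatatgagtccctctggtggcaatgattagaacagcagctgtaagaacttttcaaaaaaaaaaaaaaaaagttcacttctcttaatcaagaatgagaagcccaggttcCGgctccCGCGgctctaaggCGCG
Peg3 (chr7:6730420-6730669, minus strand): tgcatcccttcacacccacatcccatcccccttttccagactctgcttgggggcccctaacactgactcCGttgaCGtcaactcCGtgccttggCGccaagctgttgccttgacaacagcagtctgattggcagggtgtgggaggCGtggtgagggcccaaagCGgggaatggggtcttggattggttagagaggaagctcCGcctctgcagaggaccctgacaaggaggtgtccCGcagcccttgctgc
The Plagl1 stretch held 19 CG dinucleotides, and the other 4 held fewer. Inpp5f held 11, Mkrn3 held 10, and Peg12 and Peg3 held 8 each. Over windows of 300 bases (250 before to 50 after a start), the members had 45 RefSeq windows for 30 genes, with a median of 13 CG dinucleotides, against a median of 7 over all 32851 windows. The hexamer TGCCGC, searched on both strands, was present in 11 of the 45 windows (24.4%) and in 11.6% of all windows, and among the 5 sequences above it occurred once, in Plagl1. By gene it was present in 10 of the 30 members with windows (33.3%) and in 13.1% of all genes with windows. Windows of a gene can overlap, as for Mest, where those from 30737800 and 30737803 both held it. The hexamer itself holds a CG dinucleotide, and the windows of the members had the higher median of these. The part of CG content in the shares was not tested. The hexamer counts are matches of letters and not measured sites.

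The libraries held 2709421 to 73220675 reads assigned to genes, recovered from the deposited normalized counts, with the shallowest in the first knockdown and the deepest in Tet2 OE. Neuronal markers were present in every group, at summed levels from 24918 to 119560, and the 9 microglial markers summed to at most 71.8 in the first knockdown and 29 in the second. In the nuclei the microglial markers summed to 297 to 841 in WT and 483 to 765 in cKO. Astrocyte markers summed there to 6281 to 11074 in WT and 5552 to 9266 in cKO. Those of the oligodendrocyte lineage summed to 4466 to 9470 in WT and 5684 to 7469 in cKO. In the overexpression the astrocyte sums were 63687 to 213594 in synGFP and 186380 to 227070 in Tet2 OE. The neuronal sums there were 61347.5 to 119560 and 98658 to 104701. Choroid plexus markers varied widely between nuclei libraries, from 332 to 4668 in WT and from 243 to 14958 in cKO. Tet2 itself was lower in the cKO nuclei (484, 566 and 866 against 893 to 1070.4) than in WT. Its second-knockdown counts ran from 348 to 528 (median 486) in shLuc and from 88.2 to 296 (median 139) in Tet2 KD. It was higher in Tet2 OE (5592, 2815 and 3061 against 876, 1905 and 2391). Its first-knockdown counts ran from 167 to 719.9 (median 456) in shLuciferase and from 315 to 672 (median 498) in shTet2, so the groups overlapped and the libraries labelled shTet2 did not have the lower median. The call at a limma adjusted p of 0.05 or less was reached for Tet2 only in the second knockdown (log2 fold change -1.51, adjusted p = 1.13e-04). Directions in the first knockdown therefore refer to the libraries as labelled.

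Of the members described in each table, 0 of 28 changed in the nuclei, 2 of 31 in the first knockdown, 9 of 29 in the second knockdown and 9 of 34 in the overexpression. Here and below a gene is said to rise or fall, or to be called, when limma on log2(normalized count + 1), adjusted over all genes tested in the table (Benjamini-Hochberg), gave 0.05 or less, and a fold change on this scale understates the change of low genes. Among 13708 genes of the same level in the nuclei, 0% were called by limma. There 3 members had an unadjusted p under 0.05, beside 8.85% of those genes; edgeR called 0 members and DESeq2 called 1, Kcnq1ot1. Of 31 members of the first knockdown 2 rose and 0 fell, where 0.834% of 13311 genes rose and 1.76% fell, and 9 members had an unadjusted p under 0.05, beside 16.8% of those genes. Mest was called lower there by edgeR and DESeq2. The second knockdown raised 3 members and lowered 6, beside 15.5% of 12729 genes that rose and 15.8% that fell, with 11 members and 43.2% of genes at an unadjusted p under 0.05. In the overexpression 7 rose and 2 fell, beside 7.45% of 18615 genes that rose and 4.53% that fell, with 19 members and 31.2% of genes at an unadjusted p under 0.05. The shares of members called in the second knockdown (3 and 6 of 29) were near those of all genes. All libraries are bulk RNA, in which fewer cells of a type and less RNA per cell cannot be told apart. The median log2 fold change of the members was -0.03 in the nuclei (0.00 over all genes of that level), 0.08 in the first knockdown (0.01), -0.09 in the second (-0.02) and 0.12 in the overexpression (-0.50).

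**Figure D1:**
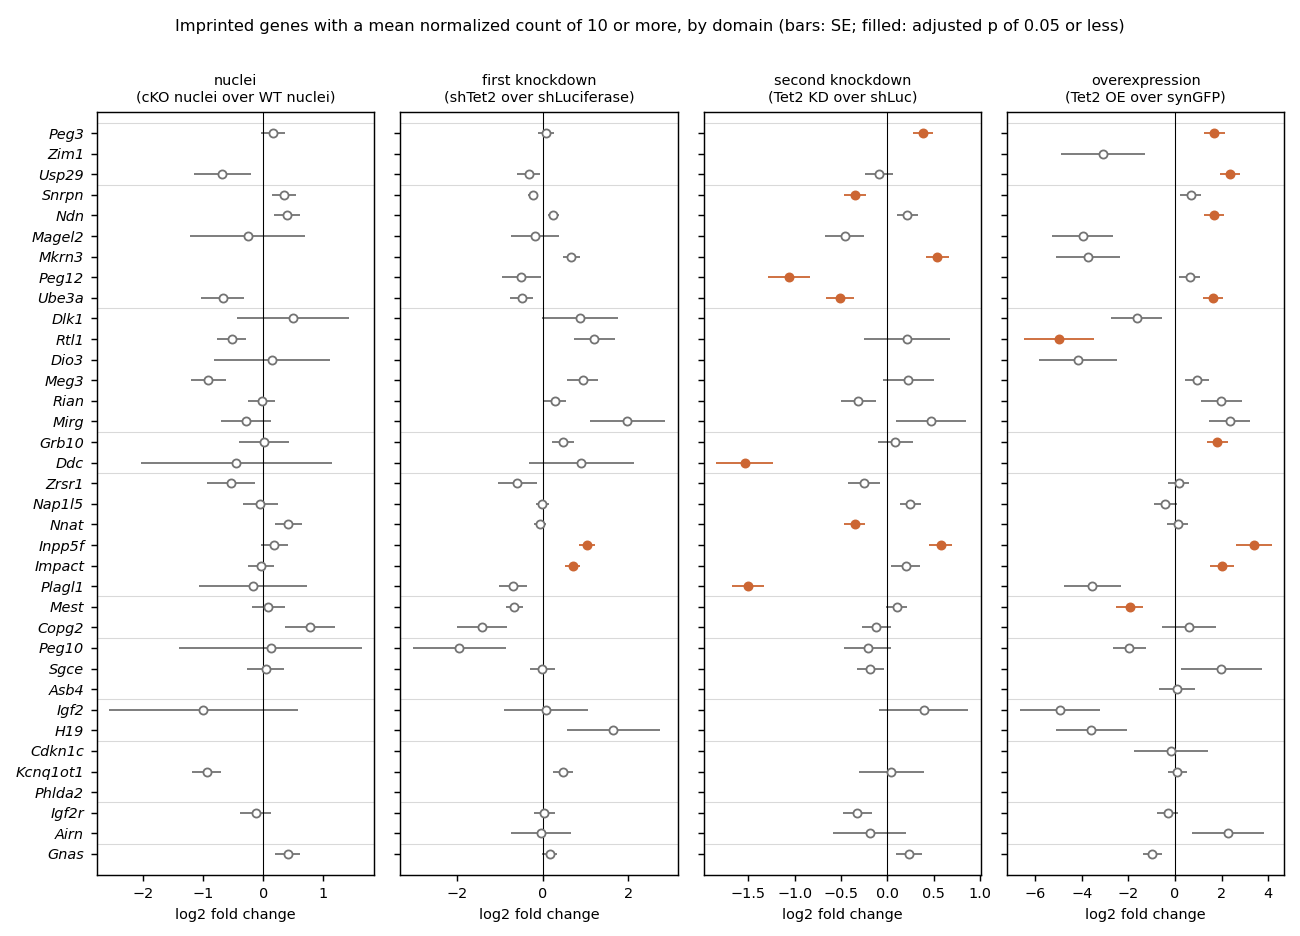
Log2 fold change of each imprinted gene with a mean normalized count of 10 or more in the 4 experiments, ordered by domain, with bars for the SE and filled orange points for genes called at an adjusted p of 0.05 or less. No point is filled in the nuclei, and Inpp5f is the only gene filled in all 3 culture experiments (1.04, 0.57 and 3.40).

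The members below the level of 10 account for the rest of the list. In the nuclei these were Zim1, Mkrn3, Peg12, H19, Cdkn1c, Phlda2, Asb4 and Airn. The first knockdown had Dio3, Zim1, Asb4, Cdkn1c and Phlda2, the second these 5 with Dlk1 and H19, and the overexpression Ddc and Phlda2. Just inside the level were Peg10 in the nuclei (mean 12.1), H19 in the first knockdown (10.2) and the overexpression (11.8), and Airn in the second knockdown (10.9). Just outside it were Airn in the nuclei (8.10), Zim1 in the first knockdown (6.74), Asb4 in the second (8.77) and both Ddc and Phlda2 in the overexpression (7.80).

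In the overexpression the scale itself was uncertain, because the median log2 fold change of all 22399 genes tested was -0.75 with the authors' size factors, -0.58 with TMM factors and -1.32 with library totals. Of all called genes 62.2% were higher with the authors' factors, 71.0% with TMM and 32.3% with library totals. The members followed the scale: 7 rose and 2 fell with the authors' factors, 7 and 1 with TMM, and 3 (Usp29, Inpp5f, Impact) and 6 (Magel2, Rtl1, Mest, Peg10, Igf2r, Gnas) with library totals, where 3.84% of all genes tested rose and 8.05% fell. The members called with the authors' factors (9) kept their sign under both other scalings, and 5 of them kept the call with library totals. Overexpression results below are given on the authors' scale and are relative to this shift. The overexpression groups also stood apart in library measures. Recovered reads numbered 16988077 to 48321564 in synGFP and 66684922 to 73220675 in Tet2 OE. Rn45s, the ribosomal RNA precursor, took 0.0607% to 0.411% of reads in synGFP and 0.00452% to 0.00662% in Tet2 OE, and 18540 to 21194 genes had a read in synGFP against 16457 to 18371 in Tet2 OE. Their part in the calls was not tested.

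Cell type markers differed between groups as well. Summed counts of 9 neuronal markers in the second knockdown were 50243 to 56641 in shLuc and 37897 to 46874 in Tet2 KD (Slc17a7 and Gad2 rose, Snap25 and Tubb3 fell). Those of 8 astrocyte markers were 11471 to 13333 in shLuc and 8354 to 10430.5 in Tet2 KD (Gfap, Aldoc and S100b fell). The 16 vascular and meningeal markers summed to 4642 to 5635 in shLuc and 4425 to 9521 in Tet2 KD, with Flt1, Col3a1, Slc6a13 and Foxc1 under 1. Igfbp2 made up most of these sums, with 4277 to 9426 over the libraries of both groups. It rose, while the other 4 called (Kdr, Pdgfrb, Acta2 and Dcn) fell. The same 16 markers summed in the first knockdown to 1137 to 1493 in shLuciferase and 382 to 1004 in shTet2, with 1 of 16, Dcn, lower. In the overexpression 8 progenitor markers summed to 10069 to 22949.9 in synGFP and 26255 to 32436 in Tet2 OE (Pax6 and Dcx rose, Hes5 fell), on the authors' scale like those that follow. The 5 markers of hippocampal excitatory neurons summed there to 3692 to 5110.0 in synGFP and 8029 to 26244 in Tet2 OE (Zbtb20 rose). Zbtb20 made up most of the Tet2 OE sums, with 1747 to 25195 over the libraries of both groups. No other of the 5 was called, and Camk2a ran from 252 to 2034 over the same libraries. The 10 of the oligodendrocyte lineage summed to 8446 to 11664 in synGFP and 4664 to 6141 in Tet2 OE (Pdgfra rose, Olig1 and Olig2 fell). The 9 of microglia summed to 187 to 286 in synGFP and 35.0 to 117 in Tet2 OE (Cx3cr1 fell), and the 16 vascular and meningeal ones to 1823 to 2512 in synGFP and 1288 to 1797 in Tet2 OE (Foxc1 fell). None of these 5 sums overlapped between the groups. Those of neurons (Gad1 and Gad2 rose), astrocytes (Aqp4 and Slc1a2 rose) and choroid plexus overlapped. Choroid plexus sums ran from 508 to 892 in synGFP and from 869 to 1357 in Tet2 OE. The share of all genes without overlap was not computed for the overexpression. In the nuclei the 8 progenitor markers summed to 379 to 497 in WT nuclei and 216 to 317 in cKO nuclei, with Top2a under 1 and 0 of 8 called. The part of any of these in the values of the imprinted genes was not tested.

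Levels in the control groups differed between the experiments, as the plot of control levels shows. Snrpn, which encodes a splicing protein, reached a mean of 1569.7 (1456 to 1762) RPM (recovered reads scaled by the library's total, with the lowest and highest library in parentheses) in shLuciferase, 1120.2 (899 to 1269.6) in shLuc, 502 (408 to 600.0) in WT nuclei and 24.2 (17.8 to 30) in synGFP. The maternally expressed noncoding RNA Meg3 was highest in WT nuclei, with a mean of 5036 (2566 to 7955) RPM, and had 3373 (905 to 7913) in shLuciferase, whose range overlapped, 753 (336 to 1046) in shLuc and 765 (718 to 793) in synGFP. Inpp5f ran the other way, with 76.4 (65.4 to 88.2) RPM in WT nuclei, 246 (206 to 282) in shLuc, 599 (331 to 782) in shLuciferase and 2923 (2047 to 3715) in synGFP, and none of these 4 ranges overlapped. Mkrn3 was at 0 in all 4 WT nuclei libraries, against means of 56.2 in shLuciferase and 46.7 in shLuc, and Peg12 had 182 (169.6 to 206) in synGFP against means of 9.13 and 3.58 in those control cultures. The 4 tables were made separately and differ in tissue, culture and RNA extraction, so these are levels side by side with no test.

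**Figure D2:**
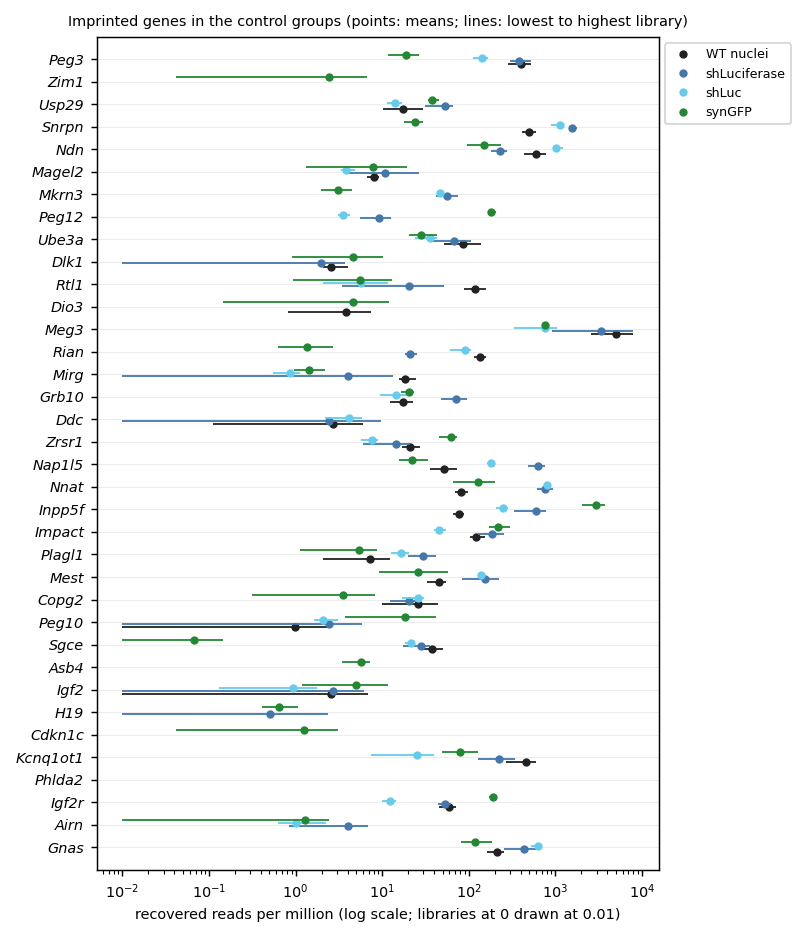
Recovered reads of the described imprinted genes in the 4 control groups, scaled by library total (RPM), on a log axis, with points for group means and lines from the lowest to the highest library. Levels are not divided by transcript length, so genes cannot be compared with each other. The library totals include Rn45s, whose share differs between the groups. Inpp5f shows 4 separate ranges.

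Inpp5f encodes a phosphoinositide phosphatase of endosomes, and a shorter transcript from an intron of the gene is expressed from the paternal chromosome in brain. The gene spans chr7:128611328-128696425 on the plus strand of mm10 (GENCODE vM21), and the counts join both kinds of transcript. Its normalized count in the first knockdown lay from 2584 to 6449.8 (median 4499) in shLuciferase and from 7522 to 12297 (median 8679) in shTet2. All 6 shTet2 libraries were above all 6 controls. The rise (log2 fold change 1.04 ± 0.19 SE, limma adjusted p = 0.00406) lost its call only when genes with low values were left in the test, among 22 alternatives. The second knockdown had it from 2269 to 3193 (median 2835) in shLuc and from 3203 to 5691 (median 4164) in Tet2 KD. Again every Tet2 KD library exceeded every control (log2 fold change 0.57 ± 0.12 SE, limma adjusted p = 0.00210). Without the columns numbered 1 to 6 the value was 0.37 with a limma adjusted p of 0.0954, which missed the threshold. The overexpression libraries gave 46034, 123121 and 195836 in the synGFP libraries and 1363888, 931329 and 1024784 in the Tet2 OE libraries. The groups did not overlap, the log2 fold change was 3.40 ± 0.76 SE (limma adjusted p = 0.00842), and the gene took 1.74% to 1.99% of all reads in Tet2 OE against 0.205% to 0.372% in synGFP. Leaving out Tet2 OE 3, Tet2 OE 6 or synGFP 5, or keeping all low genes in the test, ended that call, with adjusted p-values up to 0.186 over all alternatives and log2 values from 2.69 to 3.86. In the nuclei Inpp5f had 906, 679.9, 705 and 724 in the WT nuclei and 811, 848 and 891 in the cKO nuclei, within 1 range (log2 fold change 0.18 ± 0.22 SE, limma adjusted p = 0.852). Inpp5f was thus higher both where Tet2 mRNA was lower than in the controls (Tet2 KD) and where it was higher (Tet2 OE).

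Impact, which restrains the kinase GCN2 and so translation control in neurons, rose in the first knockdown and in the overexpression. Its counts in the first knockdown ran from 975 to 1917 (median 1401) in shLuciferase and from 1699 to 2809 (median 2241) in shTet2, and 5 of 6 shTet2 libraries were above all controls (log2 fold change 0.70 ± 0.18 SE, limma adjusted p = 0.0413). That call was lost in 11 of 22 alternatives, among them edgeR and leaving out shLuciferase 2, 3 or 4 or shTet2 2, 4, 5 or 6, with log2 values from 0.61 to 0.80 and adjusted p-values up to 0.158. In the overexpression it gave 3970.1, 7113 and 15976 in the synGFP libraries and 46858, 23147 and 27500.5 in the Tet2 OE libraries, with no overlap (log2 fold change 2.02 ± 0.52 SE, limma adjusted p = 0.0213). Leaving out any library but synGFP 6, or keeping all low genes in the test, ended the call. The second knockdown showed from 448 to 599 (median 518) in shLuc and from 435 to 949 (median 569) in Tet2 KD, a wide spread in Tet2 KD that enclosed the controls (log2 fold change 0.19 ± 0.16 SE, limma adjusted p = 0.410). In the nuclei the values were 1576, 1095, 1137 and 995 in the WT nuclei and 1368, 1168 and 951 in the cKO nuclei (log2 fold change -0.04 ± 0.22 SE, limma adjusted p = 0.967).

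Plagl1, a zinc finger transcription factor that restrains the cell cycle and regulates other imprinted genes, fell in the second knockdown with the smallest adjusted p of any member. The gene lies at chr10:13060504-13131694. Its counts were from 146 to 226 (median 197) in shLuc and from 51.2 to 82.4 (median 64.6) in Tet2 KD, and every Tet2 KD library was below every control. The log2 fold change was -1.50 ± 0.17 SE (limma adjusted p = 3.27e-06), called under all 24 alternatives including each set of columns alone. Its first-knockdown counts ran from 152 to 327 (median 219.9) in shLuciferase and from 74.4 to 283 (median 136) in shTet2. There 4 of 6 shTet2 libraries lay below all controls, and the difference was not called (log2 fold change -0.70 ± 0.33 SE, limma adjusted p = 0.340). In the overexpression Plagl1 gave 199, 248 and 60.0 in the synGFP libraries and 3.09, 11.4 and 36.2 in the Tet2 OE libraries, groups that did not overlap and missed the threshold (log2 fold change -3.55 ± 1.23 SE, limma adjusted p = 0.0738), while DESeq2 called it lower. The nuclei held 108, 21.3, 113 and 37.4 in the WT nuclei and 68.5, 159 and 10.7 in the cKO nuclei, with 10.7 in cKO 9 and 159 in cKO 4 as the extremes (log2 fold change -0.17 ± 0.90 SE, limma adjusted p = 0.966).

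**Figure D3:**
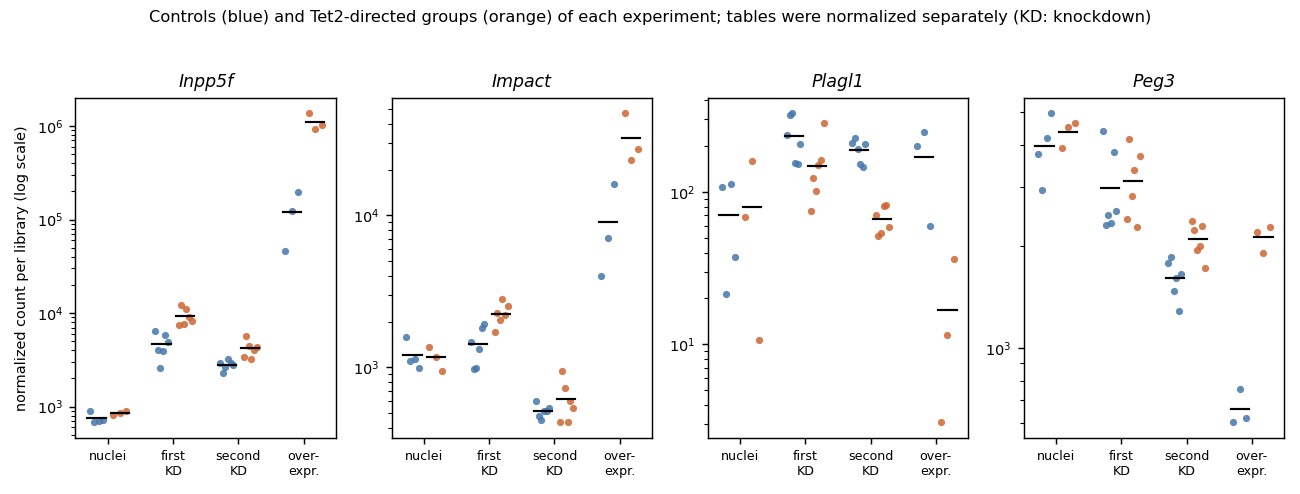
Normalized counts of Inpp5f, Impact, Plagl1 and Peg3 in every library of the 4 experiments on log axes, with controls in blue, Tet2-directed groups in orange and lines for means. Inpp5f is higher in every treated library of the 3 culture experiments, and Plagl1 is lower in every Tet2 KD library (51.2 to 82.4 against 146 to 226).

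Nnat encodes neuronatin, a small membrane protein of the endoplasmic reticulum abundant in developing neurons. It fell in the second knockdown, where counts ran from 8318 to 9909 (median 9112) in shLuc and from 5310.4 to 9201 (median 7128) in Tet2 KD and 5 of 6 Tet2 KD libraries lay below all controls (log2 fold change -0.35 ± 0.12 SE, limma adjusted p = 0.0304). The call was lost in 8 of 24 alternatives, among them leaving out shLuc 3, 7 or 8 or Tet2 KD 5, 11 or 12. Elsewhere it was not called: from 4575 to 7316 (median 6257) in shLuciferase and from 4720.3 to 6899 (median 5537) in shTet2 in the first knockdown (log2 fold change -0.07 ± 0.14 SE, limma adjusted p = 0.844). The overexpression gave 4567, 4688 and 3519 in the synGFP libraries and 2594, 5608 and 6746 in the Tet2 OE libraries (log2 fold change 0.13 ± 0.45 SE, limma adjusted p = 0.872). The nuclei had 763, 1019, 649.5 and 827 in the WT nuclei and 960.5, 1247 and 1030.2 in the cKO nuclei (log2 fold change 0.42 ± 0.23 SE, limma adjusted p = 0.752). Nnat lies within an intron of Blcap on the opposite strand, and the strand setting of the counting is not given in the sources used here, so reads of the 2 genes may not be separate.

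The other 2 genes of this set that lie inside larger host genes were called in no table. Nap1l5, a nucleosome assembly protein relative inside Herc3, ran from 3701 to 6089.8 (median 4857) in shLuciferase and from 3336 to 5886 (median 4904) in shTet2 in the first knockdown. In the second it ran from 1879 to 2338 (median 2037) in shLuc and from 2067 to 3054 (median 2288) in Tet2 KD. Its nuclei values were 743, 586, 400.2 and 342 in the WT nuclei and 450.0, 546 and 438 in the cKO nuclei. Its overexpression values were 765, 637 and 862 in the synGFP libraries and 867, 585 and 352 in the Tet2 OE libraries. All groups overlapped, with log2 fold changes of -0.05, -0.01, 0.25 and -0.41 in the nuclei, first knockdown, second knockdown and overexpression. Zrsr1, a splicing factor retrogene inside Commd1, had log2 fold changes of -0.54, -0.60, -0.25 and 0.17 in the same order, none called. Herc3, the host of Nap1l5 and one of the listed neighbours, rose in the overexpression from 528 ± 176 to 2359 ± 141 (mean ± SD, n = 3).

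The Snrpn-Ube3a domain on chromosome 7 is the mouse counterpart of the region of Prader-Willi and Angelman syndromes, with 5 paternally expressed members and Ube3a expressed from the maternal chromosome in neurons. The second knockdown raised 1 of its 6 members and lowered 3, so that neighbours moved in both directions. Mkrn3, a makorin ring finger protein that holds back puberty, ran from 503 to 563 (median 524) in shLuc and from 633 to 1035 (median 711) in Tet2 KD, with every Tet2 KD library above every control (log2 fold change 0.54 ± 0.13 SE, limma adjusted p = 0.00412). Peg12, an intronless gene related to GSK3-binding proteins, is the next member on the same strand and ran from 34.3 to 47.1 (median 40.2) in shLuc and from 13.7 to 27.9 (median 18.7) in Tet2 KD, with every Tet2 KD library below every control (log2 fold change -1.06 ± 0.23 SE, limma adjusted p = 0.00180). Each of these calls was lost when only the columns numbered 1 to 6 were used (0.55 for Mkrn3, limma adjusted p = 0.110, and -0.87 for Peg12, adjusted p = 0.154), with the direction kept.

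Snrpn fell as well in the second knockdown, where it ran from 9925 to 14713 (median 12857) in shLuc and from 8084 to 11682 (median 10001) in Tet2 KD. In 3 Tet2 KD libraries it lay below all controls, and the groups overlapped (log2 fold change -0.35 ± 0.12 SE, limma adjusted p = 0.0320). The call was lost in 8 of 24 alternatives, among them leaving out shLuc 3, 7, 8 or 9 or Tet2 KD 4 or 10. Ube3a, the ubiquitin ligase lost in Angelman syndrome, ran from 275 to 476 (median 438) in shLuc and from 219.6 to 340.2 (median 282) in Tet2 KD, with the lowest control, shLuc 8, inside the Tet2 KD range (log2 fold change -0.51 ± 0.15 SE, limma adjusted p = 0.0145). With only the columns numbered 7 to 12 its value was -0.26 (limma adjusted p = 0.407), and with the columns 1 to 6 it was -0.77. Ndn, which encodes necdin, a MAGE protein of postmitotic neurons, ran from 10304 to 14067 (median 10925) in shLuc and from 11615 to 17039 (median 12877) in Tet2 KD and was not called (log2 fold change 0.21 ± 0.11 SE, limma adjusted p = 0.170). Neither was its neighbour Magel2, another MAGE protein (log2 fold change -0.46 ± 0.21 SE, limma adjusted p = 0.114). The Ube3a gene overlaps the antisense RNA Snhg14 on the opposite strand, and Snrpn shares its transcript with Snurf, so both totals may include reads of those partners. Snhg14 was not called in the second knockdown.

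**Figure D4:**
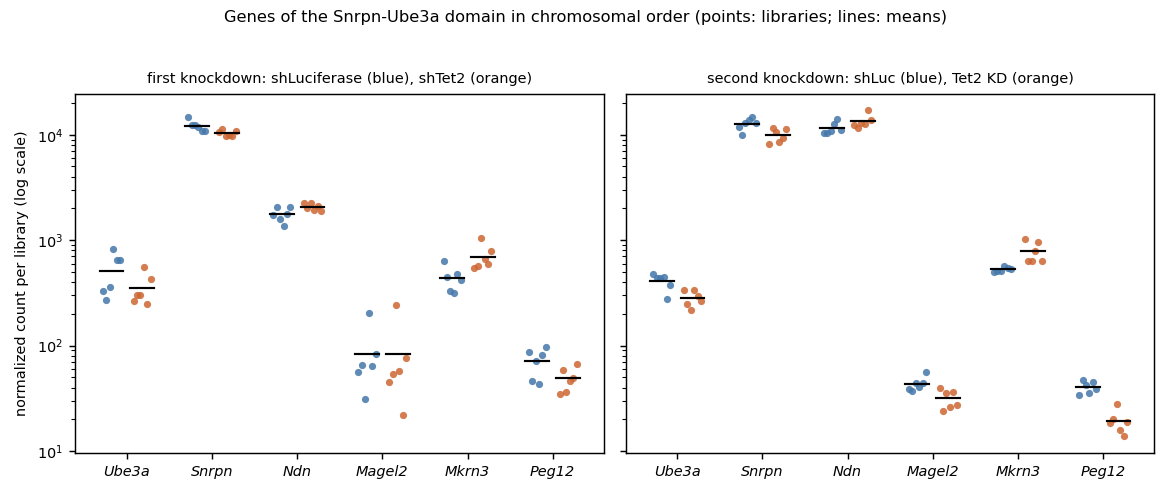
Normalized counts per library of 6 genes of the Snrpn-Ube3a domain in their order on chromosome 7, for the first (left) and second (right) knockdown, on a log axis with lines for means. In the second knockdown Mkrn3 is higher and Peg12 lower in every Tet2 KD library, while Ndn and Magel2 overlap between groups.

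In the first knockdown no member of this domain was called, and the signs were those of the second knockdown for all 6. Mkrn3 ran from 317 to 628 (median 434) in shLuciferase and from 542 to 1038 (median 628) in shTet2 (log2 fold change 0.67 ± 0.20 SE, limma adjusted p = 0.106). DESeq2 called it, as did limma without shLuciferase 1. Snrpn ran from 10918 to 14753 (median 12054) in shLuciferase and from 9632 to 11218 (median 10199) in shTet2, with 5 of 6 shTet2 libraries below all controls (log2 fold change -0.23 ± 0.11 SE, limma adjusted p = 0.352). Ndn ran from 1372 to 2073 (median 1758) in shLuciferase and from 1907 to 2266 (median 2067) in shTet2 (log2 fold change 0.24 ± 0.13 SE, limma adjusted p = 0.404). Ube3a ran from 269 to 818 (median 504) in shLuciferase and from 247 to 556 (median 299) in shTet2 (log2 fold change -0.49 ± 0.28 SE, limma adjusted p = 0.435). The groups overlapped for each of them, and Peg12 and Magel2 had log2 fold changes of -0.50 and -0.18. The Magel2 value ran from -0.57 to 0.12 over the alternatives, so its sign was not settled. How often signs matched over all genes was not counted.

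In the overexpression 2 genes of the domain rose, Ndn and Ube3a, of which Ube3a had fallen in the second knockdown. For Ndn, counts were 5322, 5052 and 5102 in the synGFP libraries and 11267, 17474 and 22199 in the Tet2 OE libraries, with no overlap (log2 fold change 1.66 ± 0.43 SE, limma adjusted p = 0.0200). Ube3a had 976, 832 and 1125 in the synGFP libraries and 4037, 2297 and 2998 in the Tet2 OE libraries (log2 fold change 1.64 ± 0.43 SE, limma adjusted p = 0.0228). Both calls were lost with library totals (log2 fold changes 0.96 and 0.93) and when synGFP 5, Tet2 OE 4 or Tet2 OE 6 was left out. Snhg14, the antisense partner of Ube3a, rose in the same libraries, from 65.6 ± 15.3 to 510.3 ± 105 (mean ± SD, n = 3). Snrpn had 675, 731 and 1304 in the synGFP libraries and 1459, 1536 and 1179 in the Tet2 OE libraries, overlapping and not called (log2 fold change 0.68 ± 0.46 SE, limma adjusted p = 0.343). Mkrn3 (-3.72) and Magel2 (-3.95) were lower in every Tet2 OE library and missed the threshold (limma adjusted p = 0.0914 and 0.0635), and Peg12 had 0.64. DESeq2 called Magel2 lower.

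In the nuclei 4 members of the domain were described, none was called by limma and the groups overlapped for all 4. Snrpn had 5338, 6235, 4448 and 3888 in the WT nuclei and 5969.8, 5583 and 7159 in the cKO nuclei (log2 fold change 0.34 ± 0.20 SE, limma adjusted p = 0.774). Ndn had 6244, 8025, 5682 and 4101 in the WT nuclei and 8820.0, 7219.6 and 7189.9 in the cKO nuclei (log2 fold change 0.40 ± 0.22 SE, limma adjusted p = 0.749). Ube3a ran the other way, with 1431, 931, 624.9 and 491 in the WT nuclei and 769, 565 and 286 in the cKO nuclei (log2 fold change -0.68 ± 0.35 SE, limma adjusted p = 0.736), where WT nuclei 1 was highest and cKO nuclei 9 lowest. Magel2 had a log2 fold change of -0.26, with 5.10 in cKO 3 and 368 in cKO 4. Mkrn3 was at 0 in every nuclei library but cKO 4, and Peg12 in every one but WT 1.

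Peg3, Usp29 and Zim1 lie together near the start of chromosome 7. Peg3, a zinc finger protein that binds DNA and acts in maternal care, and Usp29, a ubiquitin protease, are read in opposite directions from starts 164 bases apart, and their 300-base windows share 263 bases. Peg3 rose in the second knockdown, with counts from 1289 to 1857 (median 1634) in shLuc and from 1721 to 2381 (median 2121) in Tet2 KD and 5 of 6 Tet2 KD libraries above all controls (log2 fold change 0.38 ± 0.11 SE, limma adjusted p = 0.0126). Alone, neither set of columns reached the threshold, with 0.36 in 1 to 6 and 0.40 in 7 to 12. Usp29 overlapped between groups, from 130.5 to 192 (median 149) in shLuc and from 109 to 168 (median 152) in Tet2 KD (log2 fold change -0.09 ± 0.15 SE, limma adjusted p = 0.711). In the overexpression both rose. Peg3 gave 602, 755 and 619 in the synGFP libraries and 2201, 1908 and 2279.8 in the Tet2 OE libraries (log2 fold change 1.70 ± 0.43 SE, limma adjusted p = 0.0195). Usp29 gave 1026, 1416 and 1770.5 in the synGFP libraries and 10557, 5162 and 6503 in the Tet2 OE libraries (log2 fold change 2.37 ± 0.44 SE, limma adjusted p = 0.00208). Neither overlapped between groups, the Usp29 call held in all 15 alternatives, and the Peg3 call was lost with library totals (0.99) and without synGFP 5 or any 1 Tet2 OE library.

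Peg3 was not called in the first knockdown, where it ran from 2314 to 4403 (median 2505) in shLuciferase and from 2283 to 4163 (median 3086) in shTet2 (log2 fold change 0.08 ± 0.18 SE, limma adjusted p = 0.856). Usp29 there had a log2 fold change of -0.33 ± 0.28 SE. In the nuclei Peg3 had 3739, 2942, 4197 and 4949 in the WT nuclei and 3913, 4525 and 4634 in the cKO nuclei (log2 fold change 0.16 ± 0.20 SE, limma adjusted p = 0.852). Usp29 had a log2 fold change of -0.68 with WT nuclei 1 highest at 302. Zim1, the maternally expressed zinc finger gene of the domain, was described only in the overexpression, where synGFP 4 had 152 and 2 of 3 Tet2 OE libraries were at 0 (log2 fold change -3.07 ± 1.80 SE, limma adjusted p = 0.272).

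The Dlk1-Dio3 domain of chromosome 12 holds 3 paternally expressed coding genes, Dlk1 (a transmembrane protein related to Notch ligands), Rtl1 and Dio3 (a deiodinase that inactivates thyroid hormone), and 3 maternally expressed noncoding RNAs, Meg3, Rian and Mirg, which host small nucleolar RNAs and microRNAs. Of its members, 1 was called in any table: Rtl1, a retrotransposon-derived gene, fell in the overexpression. It had 294, 104 and 49.1 in the synGFP libraries and 1.03, 12.9 and 0.804 in the Tet2 OE libraries (log2 fold change -4.97 ± 1.49 SE, limma adjusted p = 0.0425). The call was lost in 6 of 15 alternatives, among them leaving out synGFP 4 or 5 or Tet2 OE 3 or 6. Meg3 in the same libraries had 16144, 32485 and 41254 in the synGFP libraries and 69919, 56429 and 40763 in the Tet2 OE libraries, overlapping (log2 fold change 0.96 ± 0.52 SE, limma adjusted p = 0.229). Rian had 60.9, 29.9 and 32.7 in the synGFP libraries and 112, 182 and 196 in the Tet2 OE libraries, every Tet2 OE library above the controls (log2 fold change 1.99 ± 0.89 SE, limma adjusted p = 0.157). Dlk1 had 233, 109.5 and 48.0 in the synGFP libraries and 66.9, 10.7 and 51.5 in the Tet2 OE libraries (log2 fold change -1.64 ± 1.08 SE, limma adjusted p = 0.329). Dio3 had a log2 fold change of -4.16 and Mirg of 2.35, none called. DESeq2 called Dio3 lower and Mirg higher.

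Within the groups of the first knockdown Meg3 spread far, from 7576 in shLuciferase 1 to 60372 in shLuciferase 4. In the same 2 libraries Rtl1 had 29 and 395, Mirg 0 and 103, and Kcnq1ot1, the paternally expressed noncoding RNA of another domain, 1068 and 2609. Malat1, an abundant nuclear noncoding RNA that is not imprinted and was chosen after these values were seen, had 10239 and 112401. Library 4 was the highest control for all 5 RNAs and library 1 the lowest for all but Kcnq1ot1, which was lowest in library 2. Between groups Meg3 ran from 7576 to 60372 (median 22548) in shLuciferase and from 19139 to 81168 (median 47636) in shTet2 (log2 fold change 0.94 ± 0.37 SE, limma adjusted p = 0.240). Rtl1 had 1.21 ± 0.48 SE and Mirg 1.98 ± 0.88 SE, and none was called. Malat1 had 0.31 (limma adjusted p = 0.718). Rian ran from 144 to 213 (median 149) in shLuciferase and from 149.6 to 263 (median 200.48) in shTet2 (log2 fold change 0.29 ± 0.26 SE, limma adjusted p = 0.629). Dlk1 ran from 0 to 28.9 (median 14) in shLuciferase and from 11.2 to 37.8 (median 18.4) in shTet2 (log2 fold change 0.88 ± 0.89 SE, limma adjusted p = 0.667). A maternal antisense RNA crosses Rtl1, so that without a known strand setting its reads cannot be told apart from Rtl1 mRNA.

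In the second knockdown the controls numbered 1 to 3 had more Meg3 (10782 to 11544) than those numbered 7 to 9 (3805 to 6606). Rtl1 split the same way, with 80.1 to 128 against 23.4 to 39.2, and Kcnq1ot1 with 394 to 439 against 84.6 to 238. Malat1 had 3800 to 4830 and 1859 to 3121 in these libraries. What the column numbers stand for is not given, and the 2 sets of columns each hold 3 controls and 3 Tet2 KD libraries. Meg3 ran from 3805 to 11544 (median 8694) in shLuc and from 5919.6 to 16852 (median 8409) in Tet2 KD (log2 fold change 0.22 ± 0.27 SE, limma adjusted p = 0.596). With the set as a term its log2 fold change was 0.22 with a limma adjusted p of 0.340. Rian did not split this way and ran from 679 to 1214 (median 1045) in shLuc and from 575 to 1242 (median 782) in Tet2 KD (log2 fold change -0.31 ± 0.19 SE, limma adjusted p = 0.257). All 9 members called in the second knockdown kept their sign in both sets, as did 22 of the 29 described. The 9 were called on the libraries of both sets together, so this is no separate check of them. The share over all genes was not computed.

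In the nuclei Meg3 had 38787, 26668, 73552 and 55765 in the WT nuclei and 18836, 28239.7 and 26291 in the cKO nuclei (log2 fold change -0.91 ± 0.30 SE, limma adjusted p = 0.586). Kcnq1ot1 had 4396, 2825, 5609.6 and 5231 in the WT nuclei and 2261, 2891 and 1789 in the cKO nuclei (log2 fold change -0.94 ± 0.24 SE, limma adjusted p = 0.529). In each, 2 of 3 cKO values lay below all WT values, and the other lay inside the WT range. DESeq2 called Kcnq1ot1 lower. Malat1 had 42668, 32204, 38614 and 40159 in the WT nuclei and 18867, 23123 and 26889 in the cKO nuclei, with all cKO values below all WT values (-0.75, limma adjusted p = 0.580). Its part in the Meg3 and Kcnq1ot1 values was not tested. Rtl1 had a log2 fold change of -0.53, with WT nuclei 5 and 6 highest for Rtl1 and Meg3 alike. Rian had 1625, 1188, 1224 and 1297 in the WT nuclei and 1664, 1409 and 937 in the cKO nuclei (log2 fold change -0.03 ± 0.23 SE, limma adjusted p = 0.981). Dlk1 had 41.0, 21.3, 20.3 and 20.2 in the WT nuclei and 21.1, 69.3 and 28.9 in the cKO nuclei (log2 fold change 0.50 ± 0.94 SE, limma adjusted p = 0.893), while Dio3 and Mirg had log2 fold changes of 0.15 and -0.29. No member had groups without overlap in the nuclei, where 8.97% of genes of that level did. Meg3, Rtl1 and Kcnq1ot1 were the 3 members with an unadjusted p under 0.05 there.

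**Figure D5:**
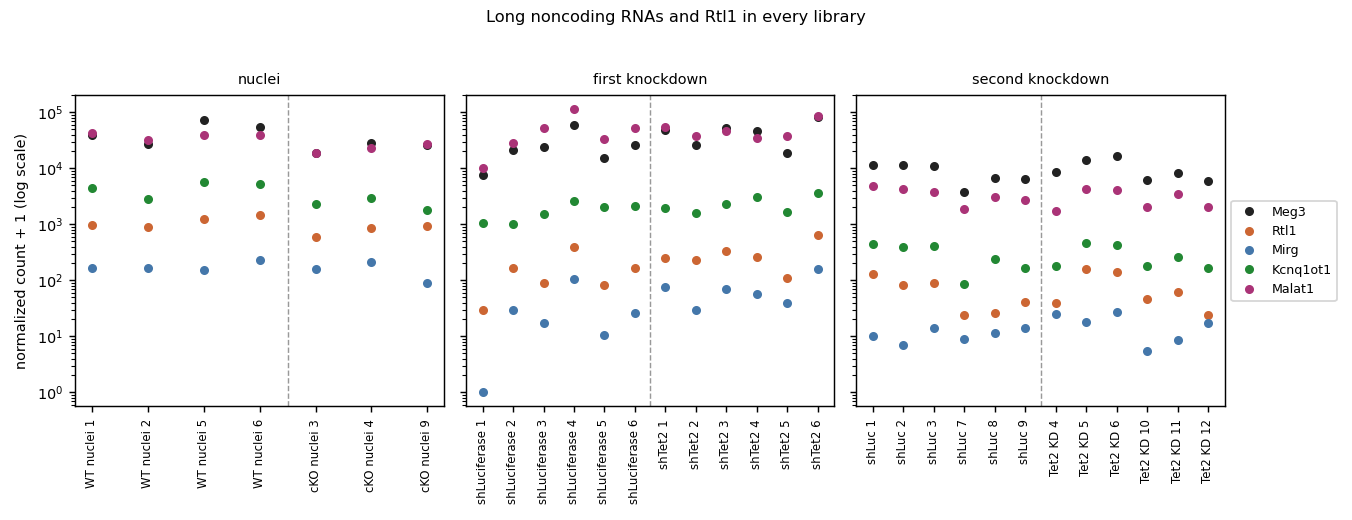
Normalized count + 1 of Meg3, Rtl1, Mirg, Kcnq1ot1 and Malat1 in every library of the nuclei and both knockdowns on a log axis, with a dashed line between controls and Tet2-directed libraries. Within the shLuciferase group library 1 is lowest and library 4 highest for Meg3, Rtl1, Mirg and Malat1, and the shLuc columns 1 to 3 lie above 7 to 9 for Meg3, Rtl1, Kcnq1ot1 and Malat1.

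Kcnq1ot1 keeps the paternal copies of Cdkn1c and Phlda2 silent, and it was not called in the cultures. It ran from 1016 to 2609 in shLuciferase and from 1619 to 3587 in shTet2 (log2 fold change 0.47 ± 0.23 SE, limma adjusted p = 0.372). Its log2 fold change in the second knockdown was 0.04, with -0.33 in the columns 1 to 6 and 0.41 in 7 to 12, and in the overexpression it was 0.11. Cdkn1c, an inhibitor of cyclin-dependent kinases, was described only in the overexpression, with 70.2, 26.5 and 2.18 in the synGFP libraries and 19.6, 30.8 and 5.63 in the Tet2 OE libraries (log2 fold change -0.18 ± 1.59 SE, limma adjusted p = 0.953). Phlda2, a growth-restraining gene of placenta, reached a mean of 10 in no table. At a mean of 2.08 in the second knockdown, limma called it higher (log2 fold change 1.5, adjusted p = 0.0204), on 0 to 1.60 normalized counts in shLuc and 1.41 to 6.10 in Tet2 KD, with 4 of 6 Tet2 KD libraries above all controls.

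Grb10 and Ddc adjoin on chromosome 11. Ddc, the decarboxylase that makes dopamine and serotonin, fell in the second knockdown from low counts: it ran from 25.6 to 66 (median 45.7) in shLuc and from 9.80 to 30.9 (median 13.2) in Tet2 KD, with 5 of 6 Tet2 KD libraries below all controls and Tet2 KD 5, at 30.9, above 2 of them (log2 fold change -1.54 ± 0.31 SE, limma adjusted p = 0.00100). The columns 1 to 6 alone gave -1.47 (limma adjusted p = 0.0721), which missed the threshold. Th, which makes the substrate of Ddc and is a neighbour of Igf2, rose in the same libraries (62.4 ± 12.4 to 126 ± 21.1 as mean ± SD, n = 6). Grb10, an adaptor that dampens insulin and growth factor receptors, was not called there, with counts from 109.5 to 209.5 (median 169) in shLuc and from 120.1 to 234 (median 164) in Tet2 KD (log2 fold change 0.09 ± 0.18 SE, limma adjusted p = 0.780). It rose in the overexpression, with 503, 948 and 867 in the synGFP libraries and 2726, 2509 and 2663 in the Tet2 OE libraries and no overlap (log2 fold change 1.82 ± 0.44 SE, limma adjusted p = 0.0148). That call was lost with library totals (1.11) and without synGFP 5 or any 1 Tet2 OE library. Grb10 in the first knockdown ran from 364 to 793 (median 541) in shLuciferase and from 436 to 1284 (median 684) in shTet2 (log2 fold change 0.47 ± 0.25 SE, limma adjusted p = 0.404). The nuclei had 234, 129, 184 and 142 in the WT nuclei and 243, 181 and 110.4 in the cKO nuclei (log2 fold change 0.02 ± 0.42 SE, limma adjusted p = 0.993). Ddc, uncalled in both, ranged from 0 to 173 in the first knockdown and from 0 to 63.1 in the nuclei.

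Mest, an enzyme of the alpha/beta hydrolase fold expressed from the paternal chromosome, fell in the overexpression. It had 1284, 495 and 484 in the synGFP libraries and 136, 168 and 236 in the Tet2 OE libraries, with no overlap (log2 fold change -1.94 ± 0.59 SE, limma adjusted p = 0.0455). The call was lost in 8 of 15 alternatives, edgeR and TMM scaling included. Mest in the first knockdown ran from 694 to 1724 (median 1245) in shLuciferase and from 653 to 792 (median 711) in shTet2, with the 6 shTet2 libraries inside a narrow band at the low end of the controls (log2 fold change -0.66 ± 0.21 SE, limma adjusted p = 0.126). It was called lower there by edgeR and DESeq2 and by limma without shLuciferase 1. The second knockdown gave from 1476 to 1718 (median 1549) in shLuc and from 1355 to 2129.7 (median 1767) in Tet2 KD (log2 fold change 0.10 ± 0.11 SE, limma adjusted p = 0.565). The difference between the knockdowns was 0.76 ± 0.25 SE in log2 (limma adjusted p = 0.110), the smallest p of the members in that comparison, and was called without shLuciferase 1 or 4. In the nuclei Mest had 561, 346, 509 and 365 in the WT nuclei and 366, 543 and 496 in the cKO nuclei (log2 fold change 0.08 ± 0.28 SE, limma adjusted p = 0.945). Copg2, a coat protein subunit whose end overlaps Mest on the other strand, had log2 fold changes of 0.78, -1.41, -0.12 and 0.60 in the nuclei, first knockdown, second knockdown and overexpression, none called.

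Peg10, a gene of retroviral descent needed for the placenta, and Sgce, which encodes epsilon-sarcoglycan and is mutated in myoclonus-dystonia, start back to back on chromosome 6, and neither was called. Peg10 in the overexpression had 935, 406 and 197 in the synGFP libraries and 203, 66.5 and 93.3 in the Tet2 OE libraries, where Tet2 OE 3 was inside the control range (log2 fold change -1.95 ± 0.72 SE, limma adjusted p = 0.0911). It was called lower by DESeq2 and with library totals. The first knockdown had from 0 to 43.8 (median 14.6) in shLuciferase and from 0 to 25.7 (median 0.454) in shTet2. The second had from 18 to 34.3 (median 22.8) in shLuc and from 14.1 to 27.5 (median 19.3) in Tet2 KD (log2 fold changes -1.95 and -0.22). The nuclei had 0, 5.12, 21.7 and 10.1 in the WT nuclei and 6.55, 40.8 and 0 in the cKO nuclei (0.12). Sgce overlapped between groups in both knockdowns, with counts from 147 to 266 (median 216) in shLuciferase and from 104 to 327 (median 241) in shTet2. In the second they ran from 214 to 269 (median 247) in shLuc and from 152 to 290.0 (median 219) in Tet2 KD (log2 fold changes -0.01 and -0.18). Its nuclei values were 358, 531, 265 and 332 in the WT nuclei and 444, 276 and 412 in the cKO nuclei (0.04). Its overexpression values were low in all libraries but Tet2 OE 4: 1.32, 0 and 7.64 in the synGFP libraries and 0, 77.3 and 15.3 in the Tet2 OE libraries. Asb4, a maternally expressed gene of the same domain described only in the overexpression, had a log2 fold change of 0.09.

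Igf2, the fetal growth factor, and H19, the noncoding RNA that shares its enhancers and is expressed from the other parent, were low in all 4 tables, and neither was called. Igf2 ran from 0 to 46.7 (median 17.1) in shLuciferase and from 2.74 to 19.3 (median 13.6) in shTet2 in the first knockdown. In the second it ran from 1.49 to 20.1 (median 10.9) in shLuc and from 4.23 to 15.3 (median 12.9) in Tet2 KD (log2 fold changes 0.08 and 0.39). In the overexpression it had 45.0, 484 and 63.3 in the synGFP libraries and 0, 0 and 48.2 in the Tet2 OE libraries, with 2 of 3 Tet2 OE libraries at 0 and the other inside the control range (log2 fold change -4.94 ± 1.72 SE, limma adjusted p = 0.0746). It was called lower when Tet2 OE 6, that other library, was left out. The nuclei had 26.2, 0, 8.70 and 65.7 in the WT nuclei and 8.01, 0 and 20.4 in the cKO nuclei, all overlapping. H19 was described in the first knockdown, with 4 of 6 controls and 2 of 6 shTet2 libraries at 0 (log2 fold change 1.65 ± 1.09 SE, limma adjusted p = 0.509). In the overexpression it had 23.8, 19.7 and 21.8 in the synGFP libraries and 0, 5.72 and 0 in the Tet2 OE libraries (log2 fold change -3.59 ± 1.53 SE, limma adjusted p = 0.138).

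Igf2r, the receptor that clears IGF2, overlaps Airn, the paternal antisense RNA that silences it outside neurons. Igf2r ran from 348 to 482 (median 418) in shLuciferase and from 192 to 775 (median 449) in shTet2 in the first knockdown. In the second it ran from 117 to 165 (median 138) in shLuc and from 86.0 to 137 (median 108) in Tet2 KD, where 4 of 6 Tet2 KD libraries were below all controls (log2 fold change -0.32 ± 0.16 SE, limma adjusted p = 0.141). In the nuclei it had 472, 560.5, 628 and 683 in the WT nuclei and 567.996, 428 and 614 in the cKO nuclei (-0.13). The overexpression gave 4264, 8316 and 9137 in the synGFP libraries and 5657, 5287 and 5599 in the Tet2 OE libraries (log2 fold change -0.32 ± 0.43 SE, limma adjusted p = 0.644), uncalled except with library totals. Airn was low and uncalled, with log2 fold changes of -0.03, -0.19 and 2.27 in the 3 culture experiments. Gnas, which encodes the stimulatory G protein alpha subunit along with imprinted alternative transcripts, ran from 2122 to 4585 (median 3280.4) in shLuciferase and from 2759 to 4205 (median 3729) in shTet2. Its second-knockdown counts ran from 6057 to 7895 (median 7348) in shLuc and from 6460.3 to 13102 (median 8171) in Tet2 KD, and the log2 fold changes were uncalled (0.16 and 0.23). The nuclei had 2649, 2423, 1809 and 1537 in the WT nuclei and 2855, 2508 and 2808 in the cKO nuclei (log2 fold change 0.40 ± 0.21 SE, limma adjusted p = 0.742). In the overexpression Gnas had 4129, 3694 and 4261 in the synGFP libraries and 1752, 2323 and 2152 in the Tet2 OE libraries, lower in every Tet2 OE library and uncalled on the authors' scale (log2 fold change -0.96 ± 0.41 SE, limma adjusted p = 0.134), with a call on library totals and with low genes kept in the test.

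No member differed between the 2 knockdowns at the threshold, among 29 described in both, where 2.21% of 12419 genes did. This is a fit over all 24 libraries with a mean for each group. By limma 3 members had an unadjusted p under 0.05, namely Mest, Rian and Plagl1, beside 18.4% of those genes, and edgeR and DESeq2 were not run on this comparison. The log2 fold change in the second knockdown minus that in the first was, for Inpp5f, called in both, -0.47 ± 0.24 SE. Among genes called in 1 knockdown it was -0.51 ± 0.25 for Impact, -0.80 ± 0.38 for Plagl1 and -0.56 ± 0.47 for Peg12. Within domains, the log2 ratio of a maternally to a paternally expressed neighbour was compared by exact two-sided permutation tests in 19 cases, and none passed after adjustment (0.543 to 0.970). By the exact test the 8 ratios of the overexpression could not go below p = 0.1 and the 3 of the nuclei not below 0.0286, so only the 8 of the knockdowns could have passed alone, and the other 11 say nothing on whether their ratios differed. The smallest exact p was 0.0571, for Meg3 over Dlk1 in the nuclei, whose mean log2 ratio was 10.8 in WT and 9.39 in cKO. Ube3a over Snrpn in the overexpression had log2 ratios of 0.17 in synGFP and 1.13 in Tet2 OE with p = 0.1 by the exact test, the smallest that 3 against 3 allows.

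Of 32 listed genes that set or keep imprints, 27 could be tested in the second knockdown, where 1 rose (Tet3) and 5 fell, with the targeted Tet2 among the 5. Of all 16164 genes tested there 12.6% rose and 13.2% fell. In the overexpression 6 of 32 rose and 0 fell by limma, beside 6.19% and 3.77% of 22399 genes. For this list edgeR called the same numbers and DESeq2 called 7 and 0, with 9 genes at an unadjusted p under 0.05 by limma, beside 27.8% of all genes. In the nuclei limma called 0 of 30, with 7 at an unadjusted p under 0.05 beside 6.97% of all genes, edgeR called 0 and DESeq2 called 1 (Ctcf). All 3 tools called 0 of 30 in the first knockdown, with 3 at an unadjusted p under 0.05 by limma, beside 14.2% of all genes. The median log2 fold change of the list was -0.42 in the nuclei (-0.09 over all genes tested) and 0.16 in the first knockdown (0.09). It was -0.13 in the second knockdown (-0.02) and 0.30 in the overexpression (-0.75). Zfp57, which reads methylated imprints, fell in the second knockdown from 228 ± 10.8 to 147 ± 44.2 (mean ± SD, n = 6; log2 fold change -0.68, limma adjusted p = 0.00508), with every Tet2 KD value below every control. It rose in the overexpression, from 347, 348 and 862 to 7395, 7674 and 9027 (log2 fold change 4.09, limma adjusted p = 3.43e-05). Besides Tet2, the methylcytosine oxidase Tet1 fell in the second knockdown (309.6 ± 44.4 to 206 ± 56.9), and its relative Tet3 rose (290.1 ± 30.1 to 433 ± 47.5). In the overexpression the histone methyltransferase gene Ehmt1 rose from 900.4 ± 36 to 6836 ± 621, and Zfp445, a second zinc finger that keeps imprints, from 549 ± 253 to 2700.2 ± 326.

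Another list joined neighbours of the imprinted domains with further genes reported as imprinted, which need not lie beside these domains. It held 69 genes, of which 67 were found in the tables. Of 60 tested in the first knockdown 0 rose and 3 fell (Dcn, Ppp2r5c, Gabra5), beside 0.655% and 1.28% of all 18315 genes tested. In the second 6 of 58 rose and 6 fell, shares below the 12.6% and 13.2% of all genes. In the overexpression 5 of 66 rose and 1 fell, beside 6.19% and 3.77%. In the nuclei 0 of 60 were called by limma, edgeR or DESeq2, with 3 at an unadjusted p under 0.05 by limma. The list's median log2 fold change was 0.05, 0.02, 0.06 and -0.38 in the nuclei, first knockdown, second knockdown and overexpression, beside -0.09, 0.09, -0.02 and -0.75 over all genes tested. Gabra5, which encodes a GABA-A receptor subunit, fell in the first knockdown from 708 ± 136 to 339 ± 137. Dcn, a proteoglycan of fibroblasts, fell in both knockdowns, from 357 ± 131 to 130.5 ± 27.4 and from 203 ± 42.9 to 94.4 ± 33.8. Dhcr7, of cholesterol synthesis, rose in the second knockdown from 1736 ± 119.8 to 2639 ± 377. In the overexpression Cd81, a tetraspanin beside the Kcnq1ot1 domain, fell from 2749 ± 1446 to 549.9 ± 154, and the muscle-associated noncoding gene Nctc1 near H19 rose from 39.4 ± 34.9 to 346 ± 178.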

How the data were processed

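RNA-seq of polyA RNA from 37 libraries (SureSelect strand-specific kit, paired ends, per the labels' protocols) was given as 4 tables of normalized counts for 24411 genes. Per the submitters' processing notes the authors used STAR, RSEM, DESeq2 and mm10, with no version named; the strand setting of the counting is not given in the sources used here. The deposited values are a signal, gene counts divided by each library's size factor, and their steps gave whole reads for all values within 0.01 reads. limma 3.58.1 with a trend in the variance (R 4.3.3) was fitted to log2(normalized count + 1) for genes with a mean of 0.5 or more, table by table, with Benjamini-Hochberg adjustment. The tables also hold the authors' log2 fold change, Wald score, p-value and adjusted p-value from DESeq2, per the file headers. The adjusted p threshold was 0.05. For the difference between knockdowns, 1 fit held all 4 groups.

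Columns of the second knockdown and the overexpression could be matched to a group but not to 1 sample, so their numbers are column numbers. Alternatives were edgeR 4.0.16 and DESeq2 1.42.0 on recovered reads, the authors' adjusted p, other pseudocounts, filters and scalings, leaving out each library, and a replicate block. Terms for the set of column numbers in the second knockdown were chosen after seeing the data. The fits were tested on simulated data. Members and lists were chosen with earlier results of these data known.

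Members with a mean normalized count of 10 or more are given by domain, where called or the main transcript of their domain with values in every library (in the knockdowns, with 6 libraries a group, the lowest, median and highest), and by ranges or fold changes otherwise. Of the other lists the called genes are named, at most the 4 with the smallest p in a table. Malat1 was added after its values were seen. Promoters are from RefSeq (GRCm38.p6), with entries for 30 of the 36 members. Single values of some listed genes are not reported here.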

Additional observations from a re-analysis of the deposited data

Results flagged for a closer look

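In 17 of 148 groups of 4 to 6 libraries 1 library stood far from the others of its group, by Dixon's gap test. Chance gives this in about 1 of 20 groups when values are normal. A group here is 1 gene in 1 set of libraries, so groups share libraries and are not independent. The 17 therefore cannot be read as an excess over that rate. No cause was tested. Dlk1 had 41.0 normalized counts in WT nuclei 1, where the other WT libraries had 20.2 to 21.3.

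In the first knockdown shLuciferase 4 was apart for 4 members. It had 60372 for Meg3 (others 7576 to 26365), 395 for Rtl1 (29 to 166), 103 for Mirg (0 to 28.9) and 201.4 for Magel2 (31.4 to 83.7). Among the other controls, shLuciferase 3 had 75.9 for Ddc (others 0 to 16.7) and shLuciferase 2 had 18.3 for H19 (0 to 5.07). Of the libraries labelled shTet2, number 3 was apart for 3 genes, with 243 for Magel2 (others 21.8 to 76.5), 173 for Ddc (0.919 to 41.5) and 19.6 for Zrsr1 (71.2 to 102). Number 6 had 158 for Mirg (28.1 to 74.4).

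In the second knockdown single controls were apart for 4 genes. Magel2 had 56.0 in shLuc 9 (others 37.4 to 44.2), Copg2 196 in shLuc 8 (284 to 334), Peg10 34.3 in shLuc 1 (18 to 23.4) and Airn 24.7 in shLuc 2 (7.2 to 12.4). In Tet2 KD, column 5 had 30.9 for Ddc (others 9.80 to 14.4) and column 4 had 13102 for Gnas (6460.3 to 8613). Of these genes, Ddc in the second knockdown was the only one called in the same table, and without Tet2 KD 5 it was called too.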

How the results depend on the processing

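Of 20 called values of imprinted genes 0 changed sign under any alternative, and of 131 uncalled ones 45 did. The alternatives use the libraries that gave the calls, or a part of them, so this is no separate check of direction. The count of members called moved as follows. In the nuclei DESeq2 and the authors' adjusted p gave 1 where limma gave 0, and over all genes 96 against 0, with 1 by edgeR and 2 with no filter. In the first knockdown (2 members, 354 genes) both gave 4 members and 846 genes. TMM scaling gave 1 member, and no filter 0 members and 234 genes. Leaving out 1 library gave 1 to 4 members (4 without shLuciferase 1; 1 without shLuciferase 2, 3 or 4 or shTet2 2, 4, 5 or 6) and 222 to 354 genes. In the second knockdown (9 members, 4180 genes) the columns 1 to 6 alone gave 3 members and 1149 genes and the columns 7 to 12 alone 2655 genes, and leaving out 1 library gave 7 to 9 members and 3529 to 4678 genes. In the overexpression (9 members, 2230 genes) DESeq2 and the authors' adjusted p gave 14 members and 4057 genes. Leaving out 1 library there gave 1 to 9 members (1 without synGFP 5, 6 without synGFP 4, 2 without Tet2 OE 3 or 6, 3 without Tet2 OE 4) and 642 to 3004 genes. For the difference between knockdowns (0 members, 289 genes) it gave 0 to 1 members and 148 to 436 genes. Where a group is left with 2 libraries its spread is taken from the fit of all. The cause of these shifts was not tested.

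The replicate block in the first knockdown left 1 member and 206 genes called. Same-numbered libraries correlated at -0.139 to 0.0577 in their deviations from the group means, and of the 6 shLuciferase libraries 1 correlated best with its own number. No pairing by number was thus seen, which cannot exclude that same-numbered libraries shared a culture.

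Depth limits the low members (H19, Igf2, Peg10, Dlk1), whose values hold few reads in the shallow libraries.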
